A study of Mus musculus with 6 samples.

Results

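The genes described here encode the protein side of the splicing machinery: the small nuclear ribonucleoproteins (snRNPs), the factors that recognise splice sites with them, the SR proteins and the heterogeneous nuclear ribonucleoproteins (hnRNPs). They were chosen by symbol. A gene was a member if its symbol began with SNRP, LSM, SF1, SF3A, SF3B, SRSF, HNRNP, U2AF or PRPF and at least 1 probe set of the array named that gene alone. This gave 70 genes on 144 probe sets, out of 11937 genes so named on the array. By stem these were 19 HNRNP, 11 SNRP, 11 LSM, 9 SRSF, 9 PRPF, 5 SF3B, 3 SF3A and 2 U2AF genes, and SF1. Each gene was read from its brightest probe set over all 6 arrays, so the choice of probe set used signal level. A further 19 probe sets that carry a member stem beside other symbols were not used, SNRPN among them.

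By the labels, total RNA came from C2C12 cells, an established mouse muscle cell line whose dividing myoblasts leave the cell cycle and fuse into multinucleated myotubes. It was hybridised to 3 arrays of myoblasts and 3 arrays of myotubes. The labels say of the myotubes that they were cultured with horse serum at 2.5%. They give no culture medium for the myoblasts, no time in culture and no other treatment, genotype or agent for either group. Nothing in them tells if the cultures behind the 3 arrays of a stage were separate, and p-values here cover only array-to-array spread, which could be technical. The arrays were of the human design HG-U133A although the labels name mouse as the organism. Which species the RNA came from remained unsettled, and symbols are those of the human genes.

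Each probe set has 1 signal per array, in linear units. The highest signal of a control probe set with no spiked target ranged from 251.5 to 1040.2 per array, and a value at or below it was not told from background. Across all probe sets the log2 signals of myoblast arrays 2 and 3 correlated at r = 0.988, and those of the other pairs within a group at 0.889 to 0.912. Some pairs across the groups were as close or closer. Myotube array 3 correlated with myoblast arrays 2 and 3 at 0.92 and 0.924 and with the other myotube arrays at 0.903 and 0.908. On linear signals myoblast array 1 correlated with the myotube arrays at 0.928 to 0.939 and with the other myoblast arrays at 0.868 and 0.872. All myoblast arrays were scanned on one day and all myotube arrays on another, and the myotube arrays shared a chip lot with no myoblast array. Scan day and chip lot therefore cannot be told apart from cell stage. Laboratory codes formed 2 runs of consecutive numbers, called series here: myoblast array 1 and the 3 myotube arrays in one, myoblast arrays 2 and 3 in the other. Myoblast arrays 2 and 3 shared a chip lot, and myoblast array 1 was of another lot. Among the myoblast arrays, series and lot therefore cannot be told apart. The titles of myoblast arrays 1 and 2 carry G1 and G2. Myoblast array 3 has the title Grow (G3), which names no cell stage. Its group came from a description that it shares with the other myoblast arrays and whose numbers stop at 2, so its group is less certain than the others.

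The labelled stages were checked against marker genes. Of 10 tested genes of differentiated muscle 8 rose in myotubes, with a summed signal of 3596 to 12007 on the myoblast arrays and 42187 to 50420 on the myotube arrays, although CKM and MYOG, defining genes of that stage, lay at or below the control level on every array. Of 10 genes of dividing cells 9 fell, with sums of 36252 to 45848 and 8157 to 11610, and MKI67 did not pass the test. ACTA1, MYH3, TNNC1, TNNI1 and TNNT1 were at or below the control level on every myoblast array, and BUB1 and CDC20 on every myotube array. Those calls describe that pattern and are no support for the labelled stages. Over all tested genes 5.89% were called higher and 7.12% lower. Of 10 fibroblast genes 7 rose, with sums of 135502 to 298630 in myoblasts and 352417 to 557853 in myotubes. ADIPOQ, PLIN1 and CEBPA of fat cells, CDH5 and KDR of endothelium and PTPRC, CD14 and LYZ of leukocytes lay at or below the control level on all 6 arrays. Other genes of these 3 lists were above it on some arrays. PECAM1 of endothelium read 877, 554 and 643 in myoblasts and 1744, 1855 and 787 in myotubes, above control on all 3 myotube arrays, and was not called (0.84, adjusted p = 0.131). VWF, too dim to test, had every myotube value (441 to 839) above every myoblast value (116 to 193), with 1 myotube value above control. CD3E was above control on 5 arrays with overlapping groups, and LPL, FABP4 and TEK on 1 to 3 arrays. The summed signals of the whole lists ranged from 1196 to 2116 in myoblasts and 1412 to 2175 in myotubes for fat cells, from 1011 to 2400 and 2258 to 3836 for endothelium, and from 634 to 1519 and 346 to 2703 for leukocytes. With the laboratory series, defined above, as a block in the fit, 4 of the dividing-cell genes were called lower, 5 of the fibroblast genes higher and 7 of the muscle genes higher. The dividing-cell, fibroblast and muscle levels move with the groups compared throughout. The endothelial sums overlap between the groups, at 2400 on the highest myoblast array and 2258 on the lowest myotube array. The part of all these levels in the splicing results was not tested. In bulk RNA fewer cells of a type and less RNA per cell cannot be told apart.

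Splicing removes introns from a transcript in a complex, the spliceosome, that assembles anew on each intron. The U1 snRNP pairs with the 5′ splice site and the U2 snRNP with the branch point, the U4/U6.U5 tri-snRNP joins, and rearrangements then form the catalytic centre. SR proteins and hnRNPs bind the transcript itself, often with opposite effects on whether an exon is used. The maturation of skeletal muscle is known for a programme of alternative exons in contractile and signalling genes.

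The first question was how members differed between the stages. Members of the Sm core and of the hnRNPs made up most of those that were lower in myotubes. For 67 members that passed a filter on low signal, myotubes were compared with myoblasts on log2(signal + 197) with limma over 8144 genes, and a gene was called at an adjusted p under 0.05. Of these 67 members 25 were lower in myotubes, against a background of 7.12% of all tested genes called lower. None was higher, against 5.89% of all tested genes, and at an unadjusted p under 0.05 there was 1 higher. In other words 37.3% of the tested members were called lower. The called members were SNRPA1, SNRPB, SNRPB2, SNRPD1, SNRPD3, SNRPE, SNRPF, SNRPG, LSM5, SF1, U2AF2, SF3A1, SF3B3, SF3B4, SRSF3, SRSF7, HNRNPA2B1, HNRNPA3, HNRNPAB, HNRNPC, HNRNPF, HNRNPH3, HNRNPK, HNRNPM and HNRNPR.

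Log2 changes, myotube minus myoblast, ran from -2.25 for SRSF7 to 1.07 for LSM14B. The median over the tested members was -0.56, where that over all tested genes was 0.12. Of the 67 members 57 had a change below 0, as did 43.5% of all tested genes. On 41 members every myotube signal lay below every myoblast signal, a pattern that 16.3% of all tested genes showed. By brightest probe sets SRSF5 alone lay above on all myotube arrays, as 18.5% of all genes did. All 25 called members were without overlap, and 15 of them differed by at least 2-fold.

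**Figure D1:**
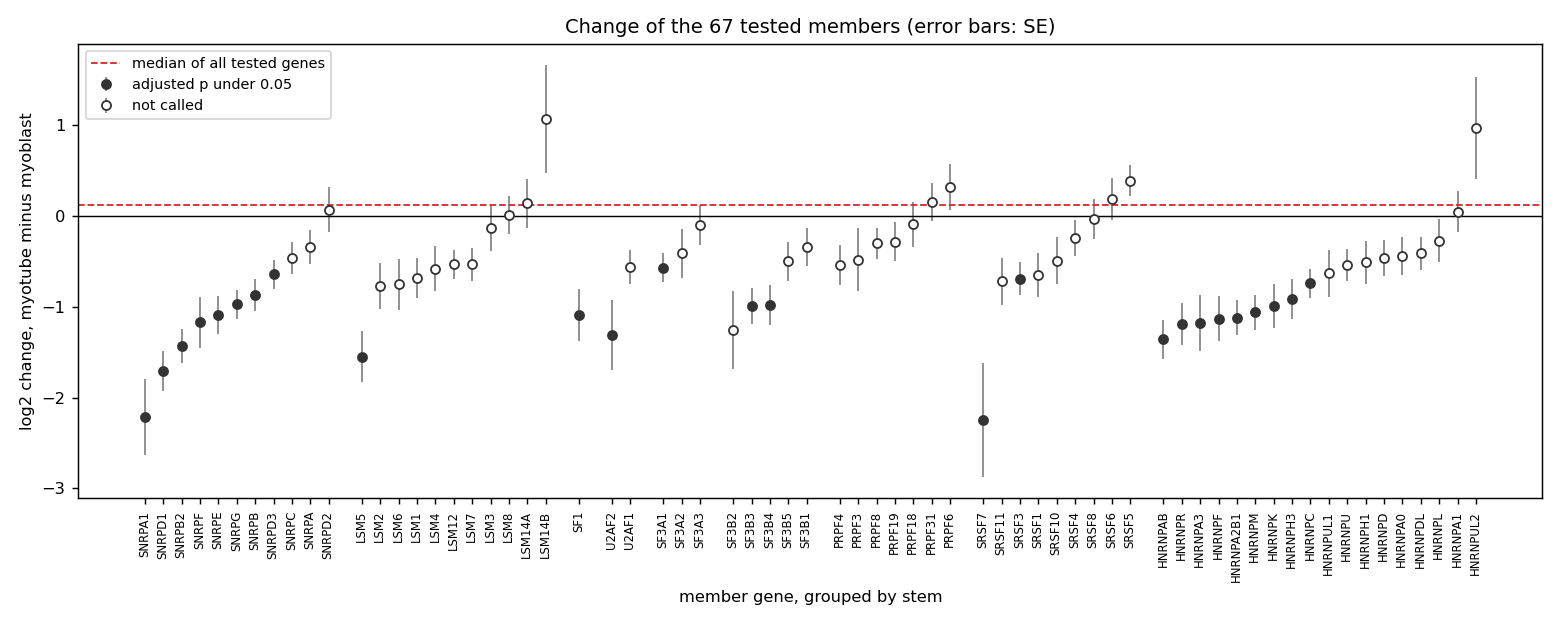
Log2 change between myotubes and myoblasts (vertical axis, log2 units) of each tested member, grouped by stem along the horizontal axis. Points are limma estimates with their SE from 3 arrays per group, filled where the adjusted p was under 0.05, and the dashed line is the median of all tested genes at 0.12; most members lie below that line, and the 2 points near 1, LSM14B and HNRNPUL2, are open with wide error bars.

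The probe sets of the members had high signals, and signal level went with the direction of change on these arrays. When tested genes were put in 4 equal bins by mean signal, in the highest bin, from 3053 up, the median change of all genes was -0.13 and 15.6% were called lower; 19 of the 46 members there were. In the next bin, from 1499 to 3052, the median was 0.02 and 7.76% were called lower; 6 of the 19 members there were. The medians of the members in these bins were -0.58 and -0.54. After quantile scaling, which gives all arrays the same distribution of signals and moved the median of all genes to 0.04, 19 members were called lower with a median change of -0.48. The background was then 6.72% lower and 5.55% higher, and no member was higher.

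The laboratory series changed the count most. With the series as a block, a fit in which myoblast array 1 is the only myoblast set directly against the 3 myotube arrays, SNRPB, SNRPB2, SNRPD1 and SNRPF were called lower, 4 in all, beside 1.36% of all tested genes. None was higher, beside 1.82%. The median change of the members was then -0.52, with all tested genes at 0.00, and 61 members were below 0. The called members HNRNPA3, HNRNPR, SF1, SNRPA1 and U2AF2, shrank by more than 1.5 times. In the first series alone, where the spread of the single myoblast array is taken from the myotubes, SNRPB and SNRPF were called. Leaving out an array also moved the count of 25. It was 12 when either myoblast array 2 or myoblast array 3 was left out, beside 2.66% and 2.69% of all genes, and 13 in the absence of myotube array 1, beside 3.43%. Dropping myotube array 2 gave 10 lower (2.86% of all genes) and 0 higher (2.27%). Dropping myoblast array 1 gave 30 lower (13.2%) and 1 higher, HNRNPUL2 (15.6%). HNRNPA2B1, HNRNPAB, HNRNPM, LSM5, SNRPB2, SNRPD1 and SNRPG were called whichever single array was left out.

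**Figure D2:**
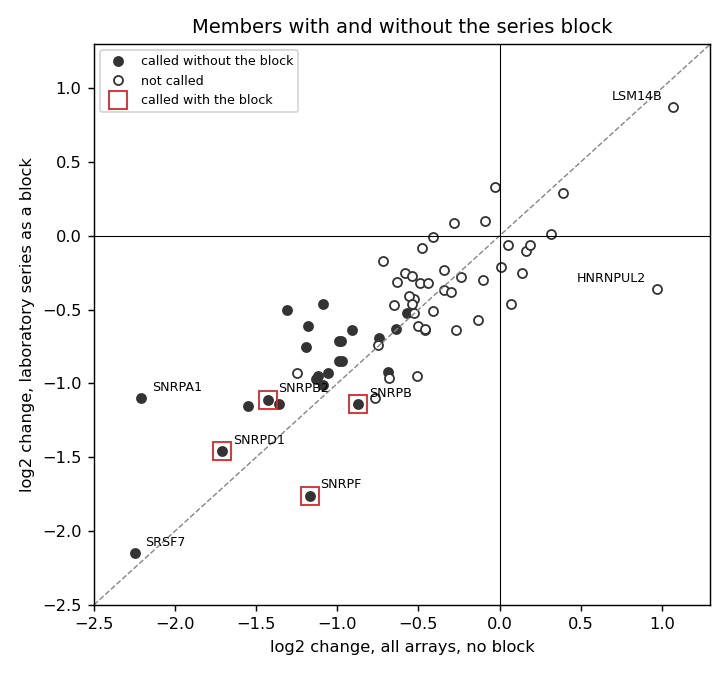
Log2 change of each tested member without a block (horizontal axis) against the change with the laboratory series as a block (vertical axis), both myotube minus myoblast in log2 units. Each point is a gene, filled where it was called without the block and boxed in red where it was called with it, and the dashed line marks equal values; the 4 boxed genes are SNRPD1, SNRPF, SNRPB2 and SNRPB, and HNRNPUL2 changes sign, from 0.97 to -0.36.

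The Sm proteins form the ring that is loaded onto the U1, U2, U4 and U5 RNAs and that defines these particles as snRNPs. All 7 genes of the ring were tested, and 6 of them fell in myotubes: SNRPB, SNRPD1, SNRPD3, SNRPE, SNRPF and SNRPG. The median change of the 7 was -0.97, and -1.01 with the series block. SNRPD2 did not pass the test. Under quantile scaling 4 of the 7 were called, without SNRPD3 (adjusted p = 0.0722) and SNRPF (0.0516).

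SNRPD1, which encodes SmD1, gave signals of 5956, 7355 and 8177 on myoblast arrays 1, 2 and 3 and of 1773, 1746 and 2714 on myotube arrays 1, 2 and 3. The groups lay far apart, with the highest myotube array below the lowest myoblast array. The log2 change was -1.71 ± 0.22 (SE, n = 3 and 3), a 3.27-fold lower level, with adjusted p = 0.00141. With the series block it was -1.46, with adjusted p = 0.0298. Without the block this was the largest fall in the ring; with it SNRPF fell more. A second, dimmer SNRPD1 probe set gave -0.53 and was not called (adjusted p = 0.19).

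SNRPE, for SmE, stood at 11494, 11585 and 13564 in myoblasts and 4468, 5247 and 7543 in myotubes. Its myoblast arrays were close to one another and its myotube arrays were more spread. The change was -1.09 ± 0.21, 2.13-fold, with adjusted p = 0.00905. SNRPG, for SmG, went from 9352, 10259 and 11059 to 4845, 5617 and 4922. Both groups were tight and apart. The change of SNRPG was -0.97 ± 0.16, 1.96-fold, with adjusted p = 0.00491. With the series block SNRPE gave -1.01 (adjusted p = 0.101) and SNRPG -0.85 (0.0575).

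SNRPF, for SmF, read 12535, 6542 and 6794 in myoblasts and 3644, 2617 and 4676 in myotubes. Myoblast array 1 stood apart from the other myoblast arrays on the high side. The change was -1.17 ± 0.28, 2.25-fold, with adjusted p = 0.0232, and -1.76 with the series block (adjusted p = 0.0184). SNRPB, for SmB and its splice form SmB′, likewise had its highest value on myoblast array 1. Its signals were 19986, 14502 and 15582 in myoblasts and 8955, 9962 and 8122 in myotubes. The change of SNRPB was -0.87 ± 0.18, 1.82-fold, with adjusted p = 0.0148, and -1.14 with the series block (adjusted p = 0.0194).

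SNRPD3, for SmD3, showed the smallest of the called changes in the ring. Its signals were 7902, 7822 and 8228 in myoblasts and 4542, 4827 and 5818 in myotubes, without overlap. The change was -0.64 ± 0.16, 1.56-fold, with adjusted p = 0.0294, and -0.63 with the block (0.163). SNRPD2, for SmD2, was the exception. It gave 30957, 15867 and 20070 in myoblasts and 21514, 21964 and 24086 in myotubes, so that the myotube values fell within the myoblast range. Its change was 0.07 ± 0.25, with adjusted p = 0.862; the sign turned to -0.46 with the series block.

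Among the called genes of the ring, SNRPD1 and SNRPG were called whichever array was left out. SNRPB lost its call without myotube array 1 (adjusted p = 0.0585) and SNRPE without myotube array 2 (0.0563). SNRPF lost it without myotube array 1 or 2 (up to 0.11), and SNRPD3 without myoblast array 2 or 3 or myotube array 1 or 2 (up to 0.145).

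The sequences just upstream of 5 Sm genes are described here, those of called genes and that of SNRPD2, which was not called. That contrast depends on the setting. With the series block SNRPD2 was at -0.46 and SNRPD3 at -0.63, and 3 of the 7 ring genes were called. Any part of the upstream sequences in the changes was not tested. These sequences are the 150 bases before the start of the mouse gene of the same symbol, from RefSeq on GRCm38.p6, 5′ to 3′ on the gene's own strand. Capitals mark matches to motifs, which were searched on both strands and do not overlap here. CCAAT is the core of NF-Y sites. CCGGAA is the core of ETS family sites. GGGCGG is the GC box. CACGTG, the E-box of MYC and USF factors, and TTTCCCGC, an E2F type site, have no match in these windows. The probes were of human design and the species of the RNA is unsettled, so a match is only a description of the mouse sequence. The 5 windows lie at chr10:75517892-75518041 on the plus strand, chr1:133610281-133610430 on the minus strand, chr10:93589659-93589808 on the minus strand, chr6:86371390-86371539 on the plus strand and chr7:19149688-19149837 on the plus strand, in the order below. Snrpb and Snrpd1 are not shown, although SNRPB and SNRPD1 were called lower, so the windows printed are only a part of the ring.
Snrpd3: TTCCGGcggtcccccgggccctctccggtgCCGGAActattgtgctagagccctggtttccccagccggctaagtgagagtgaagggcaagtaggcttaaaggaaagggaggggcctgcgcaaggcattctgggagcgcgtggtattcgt
Snrpe: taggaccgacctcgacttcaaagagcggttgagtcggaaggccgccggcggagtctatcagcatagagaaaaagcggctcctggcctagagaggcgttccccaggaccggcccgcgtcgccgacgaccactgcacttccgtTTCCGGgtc
Snrpf: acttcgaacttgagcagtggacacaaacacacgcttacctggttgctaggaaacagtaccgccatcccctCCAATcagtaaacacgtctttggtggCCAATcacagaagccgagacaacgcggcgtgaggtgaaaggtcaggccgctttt
Snrpg: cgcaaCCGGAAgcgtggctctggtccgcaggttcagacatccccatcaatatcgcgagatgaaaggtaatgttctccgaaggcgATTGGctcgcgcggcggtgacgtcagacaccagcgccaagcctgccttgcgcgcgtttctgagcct
Snrpd2: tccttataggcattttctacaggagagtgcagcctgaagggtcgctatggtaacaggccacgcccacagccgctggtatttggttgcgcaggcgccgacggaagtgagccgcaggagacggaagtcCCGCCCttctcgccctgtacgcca

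The Snrpd3 window holds 2 CCGGAA matches, Snrpe 1, Snrpf 2 CCAAT matches, Snrpg 1 of each, and Snrpd2 a GC box. Of the 70 members 58 were matched to a mouse promoter by symbol. CCGGAA occurred in 29.3% of these 58, against 9.48% of 27020 promoters; CCAAT in 39.7% against 25.3%, and GGGCGG in 48.3% against 29.0%. CACGTG occurred in 6.9% against 4.3%, and TTTCCCGC in 3.45% against 0.629%. The first listed window of each gene was used. The 27020 promoters were not limited to genes with signal on these arrays, while the members had high signals. Shares among genes of like signal were not tested, so these differences cannot be read as particular to splicing genes. Among the 58, CCAAT was in 11 of 21 called genes and 12 of 37 others, CCGGAA in 6 of 21 and 11 of 37, GGGCGG in 7 of 21 and 21 of 37. CACGTG was in 1 and 3, and TTTCCCGC in 0 and 2.

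**Figure D3:**
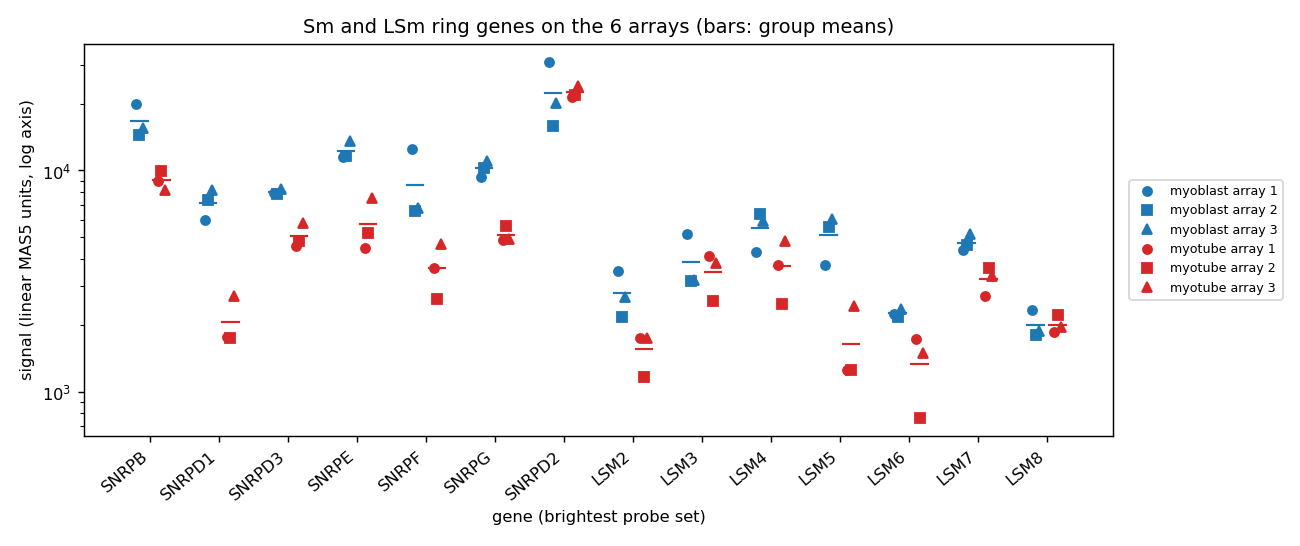
Signal of the Sm ring and LSM2 to LSM8 genes on each of the 6 arrays (vertical axis, linear MAS5 units on a log axis), by gene along the horizontal axis; blue marks are myoblast arrays, red marks myotube arrays, the shape gives the array number and short bars the group means. For SNRPB, SNRPD1, SNRPD3, SNRPE, SNRPF and SNRPG every red mark lies below every blue one, while SNRPD2 and LSM8 overlap.

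The other SNRP genes encode proteins that belong to 1 particle. SNRPA1 and SNRPB2 encode a pair of proteins that bind the U2 RNA together, and both fell. SNRPA and SNRPC encode proteins of the U1 snRNP, and neither passed the test.

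SNRPA1 gave 1501, 4600 and 5834 in myoblasts and 498, 627 and 670 in myotubes. Myoblast array 1 was far below the other myoblast arrays, and 2 of the 3 myotube values were at or below the control level of their array. The change was -2.21 ± 0.42, 4.63-fold, with adjusted p = 0.00882, and -1.10 with the series block (adjusted p = 0.093). Without myotube array 2 the adjusted p was 0.0513. Its partner SNRPB2 read 6664, 9391 and 9474 in myoblasts and 3408, 2629 and 2975 in myotubes. The change of SNRPB2 was -1.43 ± 0.19, 2.70-fold, with adjusted p = 0.00200, and -1.11 with the block (0.0323). No single array removed this call.

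SNRPC, which stabilises the pairing of U1 with the 5′ splice site, stood at 5894, 4757 and 4883 in myoblasts and 3955, 3112 and 4124 in myotubes. The groups did not overlap, but the change of -0.46 ± 0.18 had adjusted p = 0.12. For SNRPA the signals were 4585, 4161 and 4679 against 2809, 3867 and 3922. These too were without overlap, with a change of -0.34 ± 0.19 and adjusted p = 0.234.

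The LSM genes encode Sm-like proteins. LSM2 to LSM8 form the ring on the U6 RNA, and with LSM1 in place of LSM8 the ring acts in the cytoplasm, in decay of messenger RNA. Of the 7 genes from LSM2 to LSM8 only LSM5 was called, and the median change of the 7 was -0.58 (-0.57 with the block). LSM5 read 3754, 5533 and 6054 in myoblasts and 1263, 1261 and 2439 in myotubes. All 3 myotube arrays lay below the lowest myoblast array. The change was -1.55 ± 0.28, 2.93-fold, with adjusted p = 0.00693, and -1.15 with the block (0.127). The call held whichever array was left out.

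LSM2 gave 3532, 2191 and 2693 in myoblasts and 1756, 1171 and 1754 in myotubes. Its groups were apart, and its change of -0.77 ± 0.25 had adjusted p = 0.0675. LSM6 and LSM7 were also without overlap, at -0.75 and -0.53 (adjusted p = 0.106 and 0.0797). LSM4 at -0.58, LSM3 at -0.13 and LSM8 at 0.01 overlapped. The sign of LSM8 turned under quantile scaling (-0.01) and with the series block (-0.21).

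The remaining LSM genes act outside the U6 ring, and none was called. LSM1 was at -0.68 (adjusted p = 0.0674) and LSM12 at -0.53 (0.054), both without overlap. LSM14A and LSM14B encode proteins of cytoplasmic RNA granules. LSM14A overlapped at 0.14 in the main comparison and -0.25 with the block. LSM14B had the highest change of all members, 1.07 ± 0.60, with adjusted p = 0.244. Its signals were 247, 278 and 79.7 in myoblasts and 1928, 249 and 370 in myotubes. Myotube array 1 alone was above the control level of its array.

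Before U2 joins, SF1 binds the branch point, and the U2AF pair binds the tract and the AG at the 3′ splice site. SF1 and U2AF2, the large U2AF subunit, fell in myotubes, and U2AF1, the small one, did not pass. SF1 gave 2605, 5388 and 4996 in myoblasts and 1973, 1362 and 2285 in myotubes. Myoblast array 1 was close to the myotube arrays. The change was -1.09 ± 0.29, 2.13-fold, with adjusted p = 0.0348, and -0.46 with the block (0.478).

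U2AF2 had the same arrangement. Its signals were 2039, 4922 and 5062 in myoblasts and 1735, 766 and 1907 in myotubes, the middle one of the latter at or below its control level. The change was -1.31 ± 0.39, 2.49-fold, with an adjusted p just under the threshold, and -0.50 with the block (0.601). Under quantile scaling it was not called (adjusted p = 0.0627). U2AF1 stood at 8409, 9964 and 9815 against 5960, 5265 and 7879, without overlap. Its change was -0.56 ± 0.19, with adjusted p = 0.0756. SF1 lost its call without myoblast array 2 or 3 or myotube array 1 or 2 (adjusted p up to 0.144), and U2AF2 without any array other than myoblast array 1 (up to 0.181).

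The SF3A and SF3B complexes are parts of the U2 snRNP that hold it to the branch region. Of their 8 genes 3 fell, SF3A1, SF3B3 and SF3B4, all 8 were below 0, and the median change was -0.53. None was called with the series block.

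SF3B3, a large scaffold subunit, read 3358, 4034 and 3769 in myoblasts and 1728, 1535 and 2092 in myotubes. The change was -0.99 ± 0.20, 1.98-fold, with adjusted p = 0.0109, and -0.85 with the block (0.117). SF3B4, a subunit that contacts the transcript near the branch point, went from 3114, 3804 and 4569 to 1545, 1675 and 2321. Both genes were clear of overlap. The change of SF3B4 was -0.98 ± 0.22, 1.97-fold, with adjusted p = 0.0193, and -0.71 with the block (0.234).

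SF3A1, the largest SF3A subunit, gave 4436, 4741 and 4639 in myoblasts and 3204, 2944 and 2963 in myotubes. The arrays within each group were close together. The change was -0.57 ± 0.16, 1.49-fold, with adjusted p = 0.0447, and -0.52 with the block (0.237); under quantile scaling it was not called (0.103). SF3A1 lost its call without any array other than myoblast array 1 (adjusted p up to 0.214). SF3B3 lost it without myoblast array 2 or 3 (up to 0.072), and SF3B4 without myoblast array 2 or 3 or myotube array 1 or 2 (up to 0.116).

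The other subunits did not pass. SF3B2 had the lowest estimate of the 8, with 3414, 4450 and 5302 in myoblasts and 1577, 753 and 3860 in myotubes. Myotube array 3 lay inside the myoblast range and the change was -1.25 ± 0.43, with adjusted p = 0.082. SF3B5, a small subunit, stood at 9730, 8319 and 8944 against 6741, 4456 and 8292, with a change of -0.50 ± 0.22 and adjusted p = 0.153. SF3B1, which holds the branch point helix and is often mutated in blood cancers, was at -0.34 (adjusted p = 0.271). SF3A2 gave 1286, 2008 and 2118 against 1022, 1554 and 1299, and SF3A3 gave 2081, 1661 and 1659 against 1441, 1793 and 1754. Both overlapped, at -0.41 ± 0.27 (adjusted p = 0.304) and -0.10 ± 0.22 (0.764).

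Most of the PRPF genes encode proteins of the tri-snRNP or of the catalytic steps. None of the 7 that were tested was called in either direction, and their median change was -0.28 (-0.08 with the block). PRPF8, the large protein at the centre of the catalytic core, read 5352, 4671 and 5168 in myoblasts and 4295, 3626 and 4364 in myotubes. The groups were apart by little, with a change of -0.30 ± 0.17 and adjusted p = 0.243. PRPF4, of the tri-snRNP, gave 2279, 3179 and 2983 against 2180, 1858 and 1588, without overlap, at -0.54 ± 0.22 (adjusted p = 0.122). PRPF3, its partner, had 624, 921 and 1183 against 418, 768 and 587. One myoblast and 2 myotube values of PRPF3 were at or below the control level, and the change was -0.48 ± 0.35 (adjusted p = 0.354).

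Of the other PRPF genes, PRPF19, a ubiquitin ligase of the catalytic spliceosome, was at -0.28 and PRPF18, a second-step factor, at -0.09. Both were above 0 with the block (0.09 and 0.10). PRPF31 and PRPF6, which bridge parts of the tri-snRNP, were at 0.16 and 0.32, and at -0.10 and 0.01 with the block. PRPF38B and PRPF39 were too dim to test. PRPF39 gave 380, 717 and 801 in myoblasts and 205, 209 and 368 in myotubes, all 3 of the latter at or below control. PRPF38B ranged from 81.6 to 724 over the 6 arrays.

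SR proteins bind exonic enhancers and recruit the splicing machinery to them. Of 9 tested SRSF genes SRSF3 and SRSF7 fell, 7 were below 0, and the median change was -0.49 (-0.28 with the block). Both called genes are small SR proteins that also act in export of messenger RNA. Neither was called under quantile scaling (adjusted p = 0.0604 for SRSF3 and 0.0672 for SRSF7).

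SRSF7 showed 8283, 9256 and 9181 in myoblasts and 297, 3441 and 3705 in myotubes. Myotube array 1 lay below its control level and more than 10 times below the other myotube arrays. The change was -2.25 ± 0.63, 4.75-fold, with adjusted p = 0.0433, and -2.15 with the block (0.28). SRSF3 read 15515, 12722 and 11644 against 9397, 7105 and 8030, without overlap. Its change was -0.69 ± 0.18, 1.61-fold, with adjusted p = 0.0353, and -0.92 with the block (0.0561). SRSF7 lost its call without myotube array 2 or any myoblast array (adjusted p up to 0.0779), and SRSF3 without any array other than myoblast array 1 (up to 0.134).

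The remaining SRSF genes were not called. SRSF1, the founding SR protein, gave 8378, 11484 and 8963 in myoblasts and 4041, 6799 and 7749 in myotubes, without overlap, at -0.65 ± 0.24 (adjusted p = 0.101). SRSF11 gave 2750, 4873 and 5179 against 2566, 1883 and 2953. Its groups overlapped through myoblast array 1, with a change of -0.72 ± 0.26 (adjusted p = 0.0976) and -0.17 with the block. SRSF10, SRSF4 and SRSF8 overlapped at -0.49, -0.24 and -0.03, and SRSF8 was at 0.33 with the block. SRSF6 was at 0.19, and at -0.06 with the block. SRSF5 had 5202, 4998 and 4354 in myoblasts and 7208, 6544 and 5542 in myotubes. By brightest probe sets it was the one member with every myotube array above every myoblast array. Its change was 0.39 ± 0.17 with adjusted p = 0.15, and it was above 0 under quantile scaling (0.55) and with the block (0.29). A second, dimmer SRSF5 probe set gave -0.15 with overlapping groups (adjusted p = 0.643).

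The hnRNPs coat nascent transcripts and act on exon choice, export and stability. Of 18 tested HNRNP genes 9 fell and the median change was -0.69. With the series block none was called, while the median was -0.64 and all 18 were below 0. Under quantile scaling 9 were called.

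The A/B group, with paired RNA recognition motifs and a glycine-rich tail, held 3 called genes of 5. HNRNPAB read 14275, 19125 and 17111 in myoblasts and 5924, 4999 and 8782 in myotubes. It had the largest fall of the hnRNPs, at -1.36 ± 0.22, 2.57-fold, with adjusted p = 0.00475, and -1.14 with the block (0.0764). HNRNPA2B1, which binds UAG-containing sequences and sorts RNAs, gave 11576, 14034 and 13697 against 5127, 5500 and 7328. The groups were well apart. The change was -1.12 ± 0.19, 2.17-fold, with adjusted p = 0.00493, and -0.95 with the block (0.0685).

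HNRNPA3 stood at 1998, 3978 and 3579 in myoblasts and 1560, 836 and 1446 in myotubes. Myoblast array 1 lay nearest to the myotubes, and the value of myotube array 2 was at or below control. The change was -1.18 ± 0.31, 2.26-fold, with adjusted p = 0.0312, and -0.61 with the block (0.406). HNRNPA0 and HNRNPA1 were not called. HNRNPA1, the best known repressor of exon inclusion in the group, was at 0.05 with overlap (adjusted p = 0.894), and its sign turned with the block (-0.06). HNRNPA0 was at -0.44 (0.172). HNRNPA3P1, a pseudogene symbol, was at or below control on all 6 arrays and was not tested. HNRNPA1 and HNRNPA3 have processed pseudogenes, and probes may not tell near-identical copies apart.

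HNRNPC, which binds uridine tracts as a tetramer, gave 13052, 14379 and 13206 in myoblasts and 7433, 7896 and 8735 in myotubes. Both groups were tight. The change was -0.74 ± 0.16, 1.67-fold, with adjusted p = 0.0152, and -0.69 with the block (0.0933). HNRNPD (AUF1), known for binding AU-rich elements, and its relative HNRNPDL were without overlap but not called, at -0.46 and -0.41 (adjusted p = 0.141 and 0.148).

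The F and H proteins bind runs of guanines. HNRNPF gave 3512, 4172 and 4119 against 1108, 2174 and 1976, at -1.13 ± 0.25, 2.18-fold, with adjusted p = 0.0173, and -0.97 with the block (0.186). HNRNPH3 gave 3294, 4395 and 4533 against 2683, 1827 and 1746, at -0.91 ± 0.22, 1.88-fold, with adjusted p = 0.0247, and -0.64 with the block (0.273). Neither overlapped. HNRNPH1, a close relative, was without overlap at -0.51 but not called (adjusted p = 0.176); with the block it was at -0.95 (0.0926).

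Of the larger hnRNPs K, M and R fell. HNRNPR read 6109, 10506 and 8985 in myoblasts and 3315, 3020 and 4433 in myotubes, at -1.19 ± 0.23, 2.28-fold, with adjusted p = 0.00977, and -0.75 with the block (0.161). HNRNPM, which binds GU-rich sequences, gave 7412, 8535 and 8384 against 2924, 4401 and 4204. Its change was -1.06 ± 0.19, 2.08-fold, with adjusted p = 0.00731, and -0.93 with the block (0.0935). HNRNPK, which binds runs of cytosines through KH domains, gave 12416, 16576 and 16867 against 8563, 5224 and 9535. Its change was -0.99 ± 0.24, 1.98-fold, with adjusted p = 0.0243, and -0.71 with the block (0.267). In all 3 genes myoblast array 1 was the lowest myoblast array and no values overlapped.

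HNRNPU, a nuclear scaffold protein, was at -0.54 (adjusted p = 0.0754) without overlap, and HNRNPL, which binds CA repeats, at -0.27 (0.44) with overlap. HNRNPUL1 gave 2467, 3473 and 3529 against 1438, 2808 and 1811, overlapping through myotube array 2, at -0.63 ± 0.26 (0.13). HNRNPUL2 was the hnRNP with the highest estimate, 0.97 ± 0.56 (adjusted p = 0.25). Its signals were 2937, 583 and 583 in myoblasts and 4525, 1670 and 1443 in myotubes. Myoblast array 1 was above 2 of the myotube arrays; without that array HNRNPUL2 was called higher, and with the series block its change was -0.36.

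HNRNPA2B1, HNRNPAB and HNRNPM were called whichever array was left out. HNRNPF lost its call without myoblast array 2 or 3 (adjusted p up to 0.0683) and HNRNPR without myotube array 1 or 2 (up to 0.0625). HNRNPA3, HNRNPC and HNRNPK lost theirs without myoblast array 2 or 3 or myotube array 1 or 2 (up to 0.14, 0.0854 and 0.09). HNRNPH3 lost it without myoblast array 2 or 3 or myotube array 2 or 3 (up to 0.123).

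**Figure D4:**
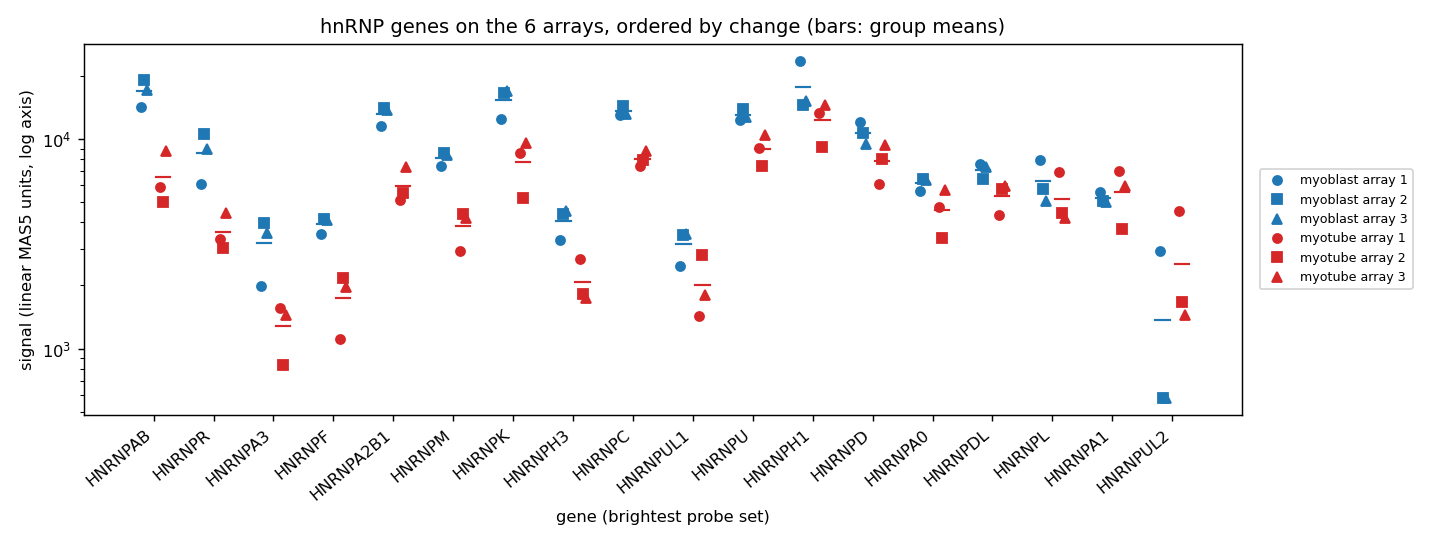
Signal of the 18 tested HNRNP genes on each of the 6 arrays (vertical axis, linear MAS5 units on a log axis), ordered along the horizontal axis by change; blue marks are myoblast arrays, red marks myotube arrays, the shape gives the array number and short bars the group means. From HNRNPAB to HNRNPC no marks overlap between the groups, and for HNRNPUL2 the blue circle, myoblast array 1 at 2937, lies apart from the other blue marks at 583.

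Members with more than 1 probe set allowed the same comparison within a gene. Of the 144 probe sets 127 were tested in a fit over 13300 probe sets; 37 were lower, against 6.43% of all, and 0 were higher, against 4.96%. The 60 that were not the brightest of their gene play no part in the counts above. Of those 60, 14 were lower and 45 were below 0, and their median change was -0.50, beside 0.09 for all probe sets.

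In HNRNPK, SNRPB, SNRPE and SRSF3 every tested probe set was lower. The second SNRPB probe set read 6670, 7761 and 6898 in myoblasts and 2630, 2567 and 3345 in myotubes, a change of -1.27 (adjusted p = 0.00277) where the brightest gave -0.87. Those of SRSF3 gave -0.69, -1.32 and -1.35. In HNRNPA3 and HNRNPC another probe set besides the brightest was also lower. HNRNPD, not called from its brightest probe set, had 2 others that were lower, at -1.71 and -1.30. HNRNPH1, PRPF4, SF3A2, SF3B1 and SRSF1 likewise had another probe set that was lower while the brightest was not called.

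Other genes disagreed in the opposite sense. SRSF7 fell by 2.25 on the log2 scale on its brightest probe set, while the other 3 gave -0.69, -0.32 and 0.15, none of them called. SNRPA1 gave -2.21 on the brightest and -0.48 and -0.40 on the others, and SNRPD1 gave -1.71 and -0.53. HNRNPR gave -1.19 and -0.12. SF1, SF3B3, U2AF2 and HNRNPA3, like SRSF7, had a tested probe set above 0 beside the one that was used, at 0.05, 0.49, 0.18 and 0.20. Among members that were not called, other LSM14A probe sets split. The groups did not overlap in either, with myotubes higher at 0.57 and lower at -0.97. A dimmer PRPF6 probe set, at 0.38, also had every myotube value above every myoblast value. The tested probe sets of HNRNPDL ran from -0.57 to 1.37. None of these probe sets was called. Which transcripts each probe set reads was not examined here. In the fit over probe sets the brightest ones of U2AF2 and SF3A1 were not called (adjusted p = 0.0524 and 0.0549).

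**Figure D5:**
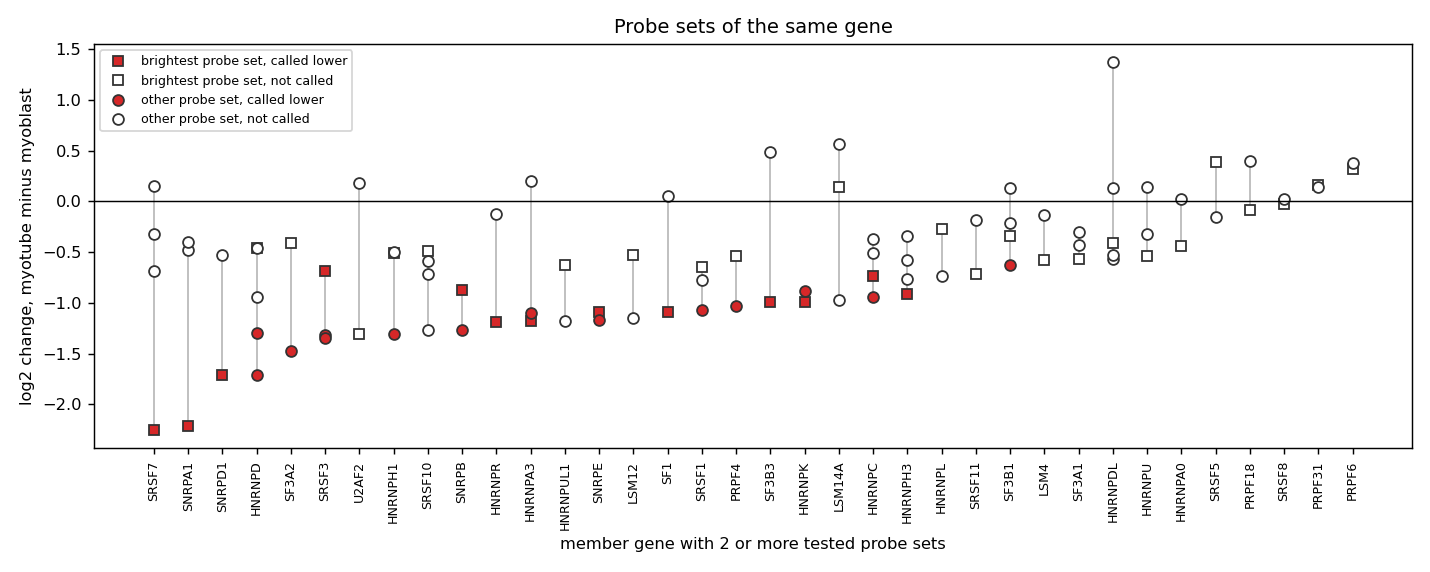
Log2 change, myotube minus myoblast, of every tested probe set of the 36 members with 2 or more (vertical axis, log2 units), 1 gene per position on the horizontal axis. Squares are the brightest probe set of each gene, circles the others, red fill marks those called lower at an adjusted p under 0.05 over all probe sets and a grey line joins probe sets of a gene; SRSF7 and SNRPA1 have a low square and higher circles, while SRSF3 and SNRPB are red throughout.

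Other genes of the pathway were described from lists made up with earlier results of these arrays known. The background of 7.12% called lower holds for these counts too. Among 16 tested genes of other snRNP proteins 2 fell (12.5%) and none rose, with a median change of -0.23. PPIH, a cyclophilin of the tri-snRNP, gave 1611, 1298 and 1231 in myoblasts and 320, 314 and 644 in myotubes, the first 2 of the latter at or below control. Its change was -1.37 ± 0.33 (adjusted p = 0.024), and that of DDX46, a helicase that acts with U2, was -0.69 ± 0.20 (0.0445). Of 13 genes of the catalytic steps 1 was called (7.69%, near the background), the helicase DHX15 (10875, 12554 and 10900 against 4638, 4001 and 8273; -1.06 ± 0.25, adjusted p = 0.0211). The median of these 13 was -0.30. Of 7 exon junction and export genes, also with a median of -0.30, 1 fell (14.3%). This was DDX39A, which fell by 1.16 ± 0.20 on the log2 scale (adjusted p = 0.00615), and it was also called with the series block (-1.44, 0.0184).

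Among 15 SR-related proteins and their kinases, with a median of -0.17, 3 fell (20.0%), TRA2B, SRPK1 and SRRM1. TRA2B, an SR-like activator of exons, gave 10696, 10262 and 10720 in myoblasts and 2392, 4391 and 5394 in myotubes, at -1.41 ± 0.26 with adjusted p = 0.00758. SRPK1, a kinase of SR proteins, was at -0.98 (0.0156), and SRRM1 at -1.0 (0.0391) but -0.30 with the block. Of 25 other RNA-binding regulators, with a median of -0.16, 6 fell (24.0%) and 1 rose. SFPQ, a paraspeckle protein, read 4856, 8969 and 8942 against 1341, 1870 and 3171 and fell by 1.77 ± 0.32 (adjusted p = 0.00693). KHDRBS1 was at -1.20 (0.0128), TARDBP at -1.05 (0.01), and TAF15 rose by 0.91 (0.0472). None of these SR-related and RNA-binding genes was called with the series block, where TRA2B was at -1.43 (0.0814), SRPK1 at -0.67 (0.202), SFPQ at -1.20 (0.14), KHDRBS1 at -0.81 (0.21), TARDBP at -0.74 (0.15) and TAF15 at 0.42 (0.514). PPIH, DDX46 and DHX15 also lost their calls with the block (adjusted p = 0.093, 0.355 and 0.19).

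Muscle is known for the antagonism of MBNL and CELF proteins over shared exons. Of 6 tested muscle splicing regulators, with a median of -0.29, 2 fell (33.3%), MBNL1 and QKI, and CELF2 rose. CELF2 gave 1275, 987 and 964 in myoblasts and 2600, 3239 and 2705 in myotubes, at 1.26 ± 0.22 with adjusted p = 0.0064, and 1.04 with the block (0.0789). MBNL1 was at -1.06 (adjusted p = 0.0359) and QKI at -1.02 (0.0305), and with the block at -0.40 (0.505) and -0.46 (0.427). Myoblast array 1 was the lowest myoblast array for both.

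The SMN complex and its helpers load the Sm ring onto snRNAs. Of 13 tested genes of snRNP assembly 3 fell (23.1%), none rose, and the median change was -0.49 (-0.48 with the block). GEMIN6, an SMN complex subunit with an Sm-like fold, read 1390, 1130 and 1278 in myoblasts and 178, 184 and 152 in myotubes. All myotube values were at or below control, so its level was at least 1.72-fold lower when the control level of each array was put in their place (adjusted p = 0.00561, and 0.0421 with the block). GEMIN6 passed the filter on low signal only through its myoblast values, as did PPIH and COIL, so these calls describe that pattern and support nothing further. PRMT5, the arginine methyltransferase that modifies Sm tails, gave 4041, 4699 and 4686 against 1784, 1957 and 2533, at -1.04 ± 0.19 (adjusted p = 0.00836), and -0.90 with the block (0.103). COIL, the coilin of Cajal bodies, was at -1.55 ± 0.43 (0.04), and -1.06 with the block (0.374), with 2 myotube values at or below control. Of the genes named from these lists DDX39A, TRA2B, CELF2 and PRMT5 were called whichever array was left out, and the others lost their call without at least 1 array.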

How the data were processed

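The authors deposited 1 signal per probe set, an intensity on a linear scale, which the submitters' processing notes credit to MAS5, with no version stated there. Between the 2% tails the mean was 1499.7 to 1499.8 per array. No detection calls were used. The number of arrays limits the precision.

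Of 22283 probe sets, 68 controls and 49 sex-linked ones were left out; the platform annotation of 2016 gave 19031 of the rest 1 symbol, 1028 several and 2107 none. The pseudocount in log2(signal + 197) was the 25th percentile over the table; folds of dim genes are therefore understated. A probe set was tested if its mean reached the 40th percentile. The groups were compared with limma 3.58.1 under R 4.3.3 (lmFit and trended eBayes, two-sided, with statmod 1.5.0) with Benjamini-Hochberg adjustment over all tested genes, and the script was tested on simulated data. There 42 of 200 probe sets changed by 1 log2 unit were recovered, with 2 false calls. Of 200 changed by 2 log2 units 177 were recovered, with 10 false calls. The simulated arrays were independent, without lot or series, so these rates need not hold for the real arrays. A gene that was not called may still differ. Alternatives were the pseudocount, filter, scaling, eBayes options, blocks, averaging myoblast arrays 2 and 3, averaging all probe sets per gene and leaving out each array.

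Members and lists were chosen with earlier results of these data known. Array values were given for called members and, per stem, up to 2 others with the largest change (or, in a stem with no called member, the smallest p as well), and, per list, up to 3 called genes per direction; SNRPD2, SRSF5 and other members were added after their values were seen. Replicate numbers and groups came from the labels; for 3 myoblast arrays the run records number them differently. Figures were drawn with matplotlib 3.10.9.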

Additional observations from a re-analysis of the deposited data

How the results depend on the processing

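Of 20 alternatives, those not given here kept the count of members called lower within 1.5 times 25. It was 13 with eBayes without trend (4.2% of all genes called lower), 8 with chip lot as a random block (2.14%), 4 with the laboratory series as a block (1.36%), 2 in the first series alone (0.589%) and 12 with myoblast arrays 2 and 3 averaged (2.7%). Leaving out 1 array gave 10 to 30 members lower and 0 to 1 higher, and 408 to 2347 of all genes called. The 1060 genes called in all became 322 with chip lot, 259 with series, 130 in the first series alone and 416 with averaging. The pairing by replicate number was checked: deviations from the group means correlated at 0.25, -0.18 and 0.38 between same-numbered arrays, so the numbers were not taken as pairs. With the replicate block 31 members were lower, 1 (HNRNPUL2) was higher, and 1627 genes were called in all. No member that was called reversed under an alternative. The limits are 3 arrays per group, and values near the control level for SNRPA1, SRSF7, U2AF2 and HNRNPA3. No scan day or chip lot was shared between the stages, and among the myoblast arrays lot and series coincide. These causes were not tested.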
